A study of Mus musculus with 55 samples.

Results

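The flexor digitorum brevis (FDB), a short toe flexor in the sole of the foot, was set against the soleus, a deep calf muscle, in mdx mice at 2 months of age. The comparison rests on 7 of the 55 libraries of the series, chosen by the muscle, genotype and age that the submitters' labels give: 3 libraries of mdx FDB and 4 of mdx soleus. The mdx mouse, a widely used model of Duchenne muscular dystrophy, carries a mutation in Dmd in every cell and lacks full-length dystrophin, so the FDB and soleus groups share the mutation. To see where the difference between muscles varied with age or genotype, the same comparison was made in mdx mice at 5 months (7 FDB and 7 soleus libraries) and in wild-type mice at 2 months (4 and 4). The labels give no strain background and no other allele or treatment, leave unsaid whether replicates come from different mice, and tie no FDB library to a soleus library, so p-values measure the spread among libraries only, part of which may be technical.

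Values are RPKM, read numbers divided by transcript length and by the mapped reads of each library, as the authors deposited them for 24453 genes. The 12541 genes that averaged 0.5 RPKM or more over the 55 libraries were tested in 1 limma model on log2(RPKM + 1), and differences below are FDB minus soleus on that log2 scale, which understates the change of low genes. A value after ± that follows such a difference is its standard error. "Rose", "fell", "higher" and "lower" are used of FDB relative to soleus and, for genes, only past a Benjamini-Hochberg adjusted p of 0.05 over all genes tested. Depth recovered from the steps between low RPKM values was approximately 51.6 to 58.6 M reads in the mdx FDB libraries and 50.3 to 62.8 M in the mdx soleus libraries. Pearson's r across genes was 0.9937 to 0.9976 between mdx FDB libraries and 0.9934 to 0.9964 between mdx soleus libraries.

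As background, skeletal muscles are mosaics of slow (type I) and fast (types IIA, IIX and IIB) fibres. Slow and IIA fibres burn fat and carbohydrate in many mitochondria under a dense capillary bed, whereas IIX and IIB fibres lean on glycolysis and clear calcium quickly. The mouse soleus is a postural muscle of type I and IIA fibres. The FDB is a muscle of very short fibres, mostly IIA and IIX, set among the nerves, tendons and connective tissue of the foot, and is widely used as a source of single fibres for calcium and excitability recordings. In mdx mice both muscles go through degeneration and regeneration after weaning.

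Dmd, the dystrophin gene, was measured first in every group. It stood at 3.45, 3.91 and 3.76 RPKM in FDB, against 2.95, 2.85, 2.62 and 2.77 RPKM in soleus. Its level was slightly higher in FDB (0.31 ± 0.08 log2, adjusted p = 0.00112), a call lost after median-of-ratios scaling (0.11, adjusted p = 0.279) and quantile normalization (0.08, adjusted p = 0.457). At 5 months mdx FDB was at 3.46 ± 0.171 RPKM and mdx soleus at 2.31 ± 0.581 RPKM (SD, n = 7 each). At 2 months wild-type FDB was at 11.7 ± 0.252 RPKM and wild-type soleus at 9.24 ± 0.58 RPKM (n = 4 each), so the mdx groups lay below the wild-type groups. Among muscle genes, Ckm, muscle creatine kinase, was at 3747 ± 231 RPKM in mdx FDB and 4130.4 ± 227 RPKM in mdx soleus (SD, n = 3 and 4). It did not pass with the deposited values but was lower after median-of-ratios scaling (−0.40, adjusted p = 0.00865) and quantile normalization (−0.57, adjusted p = 1.3e-05). Of 12 skeletal muscle genes 4 rose and 5 fell (1 and 6 after median-of-ratios scaling), where 51.2% of all genes tested rose and 15.9% fell. Summed over that list, RPKM ran from 23763 to 24044 in mdx FDB and from 28725 to 29576 in mdx soleus. The slow and fast sarcomere genes that tell the muscles apart are described below. Xist was at or under 0.013 RPKM in all 7 mdx libraries and the Y-linked Uty was present in all of them, so the libraries of both muscles were alike in sex-linked RNA. Of markers of other cells, the keratinocyte genes Krt5 and Krt14 were at or under 0.0631 RPKM in mdx FDB, while Krtdap, an outer-skin gene, was at 13, 6.84 and 6.99 RPKM in FDB, against 0, 0.129, 0.384 and 0.123 RPKM in soleus. Krtdap is not on the skin and gland list, of which 7 genes were tested, 1 rose and 1 fell (1 and 1 after median-of-ratios scaling). Summed over the list, RPKM ran from 11.4 to 17.4 in mdx FDB and from 4.73 to 6.75 in mdx soleus. No B or T cell marker on the list used reached the level needed for the test.

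Of the 12541 genes tested, 8410 differed between mdx FDB and mdx soleus (67.1%), 6419 higher (51.2%) and 1991 lower (15.9%). At least 2-fold differences on the log2 scale were found for 646 genes higher (5.15%) and 310 lower (2.47%). The lean towards higher values depended on the scaling: the median difference of all genes was 0.21 log2 with the deposited RPKM and 0.013 after median-of-ratios scaling, with which 7213 genes differed (57.5%), 3636 higher (29.0%) and 3577 lower (28.5%). Of 7604 genes called with quantile normalization (60.6%), 3894 were higher (31.1%) and 3710 lower (29.6%). For this reason list medians are given below less the median of all genes, the count after median-of-ratios scaling stands beside the list counts, and small differences that change sign with the scaling are said to do so. Every list count below is to be read beside the shares over all genes tested, 51.2% higher and 15.9% lower (29.0% and 28.5% after median-of-ratios scaling). List counts cover only the members that reached the mean needed for the test.

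Among the largest rises in FDB were genes known from fast muscle, peripheral nerve and connective tissue. Mss51, a muscle gene of glycolytic fibres whose product acts at mitochondria, was at 73.3, 87.1 and 83.1 RPKM in FDB, against 0.912, 0.742, 0.636 and 0.54 RPKM in soleus, a difference of 5.59 ± 0.30 log2, adjusted p = 5.45e-21. Coch, encoding the secreted matrix protein cochlin, was at 24.7, 55.9 and 84.3 RPKM in FDB, against 0.147, 0.322, 0.202 and 0.167 RPKM in soleus (5.37 ± 0.30 log2, adjusted p = 4.63e-20). Its FDB libraries differed among themselves by more than 3-fold, yet all stood far above every soleus library. Pvalb, the cytosolic calcium buffer parvalbumin of fast fibres, was at 1325, 1763 and 1528 RPKM in FDB, against 75.5, 148, 156 and 94.5 RPKM in soleus. Pvalb rose by 3.74 ± 0.41 log2 (adjusted p = 6.4e-11). Angptl7, a secreted angiopoietin-like protein found in tendon and eye tissue, stood at 198, 222 and 228 RPKM in FDB, against 13.8, 11.5, 7.94 and 12.7 RPKM in soleus. Angptl7 rose by 4.14 ± 0.42 log2 (adjusted p = 7.53e-12). Genes with the largest differences were named only where the FDB and soleus libraries do not overlap, which holds for 74.4% of all genes tested.

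Mbp, myelin basic protein, rose by 3.30 ± 0.31 log2 (adjusted p = 8.35e-13). Anxa8, an annexin, rose by 3.74 ± 0.18 log2 (adjusted p = 3.15e-22). Nov, a matricellular protein of the CCN family, rose by 3.56 ± 0.20 log2 (adjusted p = 2.39e-20). Apod, a lipid carrier of nerve and connective tissue, rose by 3.36 ± 0.23 log2 (adjusted p = 2.83e-17). Myoc, encoding the secreted glycoprotein myocilin, was at 203 ± 10.8 RPKM in FDB and 19.1 ± 1.39 RPKM in soleus (SD, n = 3 and 4; 3.35 ± 0.20 log2, adjusted p = 3.06e-19). Inmt, a methyltransferase of small amines, rose by 3.29 log2 (adjusted p = 1.2e-13). Calml3, a calmodulin-like protein best known from epithelium, was at 9.94, 8.77 and 10.1 RPKM in FDB, against 0.105, 0.0689, 0.101 and 0.118 RPKM in soleus. Calml3 rose by 3.27 ± 0.12 log2 (adjusted p = 4.07e-27).

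Among the largest falls were genes known from oxidative fibres. Bdh1, the mitochondrial enzyme that interconverts the ketone bodies, was at 0.983, 0.778 and 0.704 RPKM in FDB, against 57.4, 53, 55.9 and 65.5 RPKM in soleus, the largest fall among all genes named by the rule (−5.02 ± 0.19 log2, adjusted p = 3.05e-26). Mettl21c, a muscle methyltransferase of slow fibres, was at 1.6, 3.74 and 3.49 RPKM in FDB, against 114, 96.8, 123 and 83.8 RPKM in soleus. Mettl21c fell by 4.77 ± 0.27 log2 (adjusted p = 2.43e-20). Fabp3, the fatty acid carrier of oxidative muscle and heart, was at 68.1, 62.2 and 71.6 RPKM in FDB, against 1328, 1272, 1476 and 1147 RPKM in soleus (−4.25 ± 0.16 log2, adjusted p = 1.12e-26). Fzd9, a Wnt receptor, fell by 3.55 ± 0.20 log2 (adjusted p = 5.82e-20). Plin5, a coat protein of lipid droplets at mitochondria, fell by 3.24 ± 0.16 log2 (adjusted p = 8.24e-22). Ckmt2, the sarcomeric mitochondrial creatine kinase, fell by 3.10 ± 0.14 log2 (adjusted p = 3.08e-24). Ephx2, the soluble epoxide hydrolase, and Sim2, a basic helix-loop-helix transcription factor, were lower as well (−2.90 ± 0.12 log2, adjusted p = 2.67e-25 and −2.89 ± 0.08 log2, adjusted p = 1.04e-31). Apol6 (−3.11 ± 0.14 log2, adjusted p = 5.28e-24) and Lrrc52, a potassium channel subunit (−2.92 ± 0.21 log2, adjusted p = 1.39e-16), completed the 12 largest falls, with Myl3 and Atp2a2 below.

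The adult myosin heavy chains, each the mark of a fibre type, placed mdx FDB on the fast side (2 rose and 1 fell, 2 and 2 after median-of-ratios scaling). Myh7 (type I) was at 235, 191 and 199 RPKM in FDB, against 1897, 1369.6, 1661 and 1320.2 RPKM in soleus (−2.89 ± 0.45 log2, adjusted p = 2.62e-07). Every FDB library lay below every soleus library. Myh2 (type IIA) was at 1556, 1612 and 1564 RPKM in FDB, against 2008, 2199, 1970.4 and 2297 RPKM in soleus, a difference that did not pass the test (−0.42 ± 0.26 log2, adjusted p = 0.148) but did after median-of-ratios scaling (−0.68, adjusted p = 0.0234) and in a fit of the 7 libraries alone (−0.42, adjusted p = 0.000352). Myh1 (type IIX) was at 3255, 3409 and 3506 RPKM in FDB, against 1259.5, 1559.6, 1411 and 1499 RPKM in soleus (1.25 ± 0.24 log2, adjusted p = 1.86e-05). It was the most abundant of the 4 transcripts in FDB, whereas Myh2 was the most abundant in soleus on the same per-length scale. Myh4 (type IIB) was at 379, 564 and 486 RPKM in FDB, against 95.6, 98.2, 70.4 and 34.7 RPKM in soleus. Myh4 rose by 2.74 ± 0.81 log2 (adjusted p = 0.00285). In wild-type mice the Myh4 difference was 0.59 ± 0.75 log2, adjusted p = 0.489, with 571 ± 55.8 RPKM in FDB and 385 ± 85.7 RPKM in soleus (SD, n = 4 each). The difference between genotypes did not pass (genotype by muscle 2.15 ± 1.11 log2, adjusted p = 0.483). In fits of the libraries of the comparison alone, it did (2.15, adjusted p = 0.00698), and so did the wild-type difference (0.59, adjusted p = 0.0059).

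**Figure D1:**
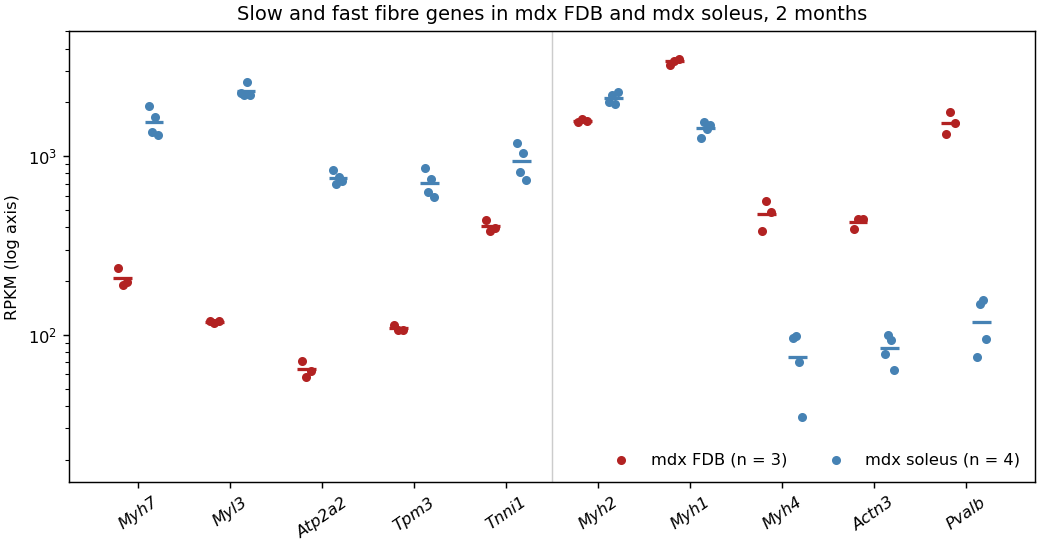
RPKM on a log axis for 10 genes that mark slow (left) and fast (right) fibres, in the 3 mdx FDB libraries (left of each pair) and the 4 mdx soleus libraries (right of each pair), with bars at the group means. Myl3 and Atp2a2 stood lowest in FDB relative to soleus and Pvalb highest, while Myh2 differed least.

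Among the 18 genes of the slow fibre sarcomere, 12 fell and 2 rose in FDB, and their median was −1.62 log2 relative to all genes (15 lower and 1 higher after median-of-ratios scaling). Myl3, the slow and ventricular essential light chain, was at 119.7, 116 and 119 RPKM in FDB, against 2265, 2189, 2606 and 2189 RPKM in soleus. It fell by 4.28 ± 0.31 log2 (adjusted p = 3.04e-16). Atp2a2, the slow calcium pump SERCA2, was at 71.7, 57.9 and 62.7 RPKM in FDB, against 832, 700.2, 762 and 725 RPKM in soleus. Atp2a2 fell by 3.54 ± 0.20 log2 (adjusted p = 1.88e-20). Also lower were Tpm3, the slow tropomyosin (−2.68 ± 0.19 log2, adjusted p = 1.19e-16), and Ankrd2, a stretch-regulated titin-binding protein (−2.82 ± 0.39 log2, adjusted p = 3.23e-08). So were Casq2, the slow calsequestrin (−2.47 ± 0.30 log2, adjusted p = 9.52e-10), Myl2, the slow regulatory light chain (−2.44 ± 0.37 log2, adjusted p = 2.05e-07), and Myh7b (−1.71 ± 0.23 log2, adjusted p = 1.56e-08). The slow troponins fell less: Tnnt1 by 1.12 log2 (adjusted p = 0.000231) and Tnni1 by 1.19 (adjusted p = 0.00713). Tnnc1 differed by −0.50 without passing (adjusted p = 0.118; passing after median-of-ratios scaling, −0.76, adjusted p = 0.0212, and in a fit of the 7 libraries alone, −0.50, adjusted p = 0.005). The essential light chain Myl6b went the other way, at 595, 576 and 566 RPKM in FDB, against 204, 136, 155 and 109 RPKM in soleus (1.97 ± 0.29 log2, adjusted p = 7.47e-08). Fhl1 was the other riser, by 0.45 log2 (adjusted p = 0.0155; 0.19, adjusted p = 0.356 after median-of-ratios scaling).

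The Myl3 promoter window, shown because Myl3 had the largest fall of the sarcomere genes, is given 5′ to 3′ from RefSeq (GRCm38.p6, chr9:110763428-110763727, plus strand), from 250 bases before to 50 bases after the annotated start. Capitals mark 1 E-box (CANNTG, the core bound by myogenic basic helix-loop-helix factors) and 2 M-CAT motifs (CATTCC or its complement, bound by TEAD factors), which do not overlap. Of all 32851 windows in that table, 72.3% hold an E-box and 14.7% an M-CAT; of the 23 windows of 17 slow sarcomere genes, 23 and 3 do. A match is a description of the letters and shows no binding.
Myl3: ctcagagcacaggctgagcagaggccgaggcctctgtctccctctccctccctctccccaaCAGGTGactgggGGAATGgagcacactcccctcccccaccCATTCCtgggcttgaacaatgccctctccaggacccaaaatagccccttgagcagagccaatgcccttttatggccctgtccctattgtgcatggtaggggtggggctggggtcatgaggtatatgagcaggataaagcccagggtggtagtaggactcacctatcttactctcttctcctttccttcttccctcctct

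Fast sarcomere genes rose in 14 of 20 cases with 1 fall (after median-of-ratios scaling 10 and 3), with the median at 0.32 log2 relative to all genes. Actn3, the alpha-actinin of fast fibres, was at 391, 447 and 443 RPKM in FDB, against 77.9, 100.02, 94.1 and 63.5 RPKM in soleus. Actn3 rose by 2.35 ± 0.51 log2 (adjusted p = 7.97e-05). Mylk4, a myosin light chain kinase, rose by 1.44 (adjusted p = 9.79e-07), Atp2a1, the fast calcium pump SERCA1, by 0.88 (adjusted p = 1.75e-10), Tpm1 by 0.72 (adjusted p = 1.16e-05) and Mylpf, the fast regulatory light chain, by 0.49 (adjusted p = 0.0195). The fast troponins differed little: Tnnc2 rose by 0.27 (adjusted p = 0.0412), while Tnnt3 (0.17, adjusted p = 0.453), Tnni2 (0.21, adjusted p = 0.331) and the light chain Myl1 (0.29, adjusted p = 0.118) did not pass. Tnnt3 and Tnni2 turned sign with median-of-ratios scaling and with quantile normalization, and Myl1 with quantile normalization. The calls of Mylpf and Tnnc2 were lost after median-of-ratios scaling (0.23, adjusted p = 0.348 and 0.01, adjusted p = 0.955). The Mylpf call was also lost without ns02, ns04 or ns20 (adjusted p up to 0.0601), and that of Tnnc2 without ns02, ns04, ns17 or ns18 (adjusted p up to 0.141). In a fit of the 7 libraries alone Tnni2 (0.21, adjusted p = 0.0272) and Myl1 (0.29, adjusted p = 0.0114) passed. The exception was Mybpc2, named for fast myosin-binding protein C, which was at 9.45, 16.1 and 14.2 RPKM in FDB, against 65.5, 106, 96.9 and 85.2 RPKM in soleus (−2.66 ± 0.39 log2, adjusted p = 6.94e-08). It was lower in every FDB library than in any soleus library.

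Most genes of oxidative metabolism fell in mdx FDB, from fat uptake to the respiratory chain. Of 27 genes for fatty acid uptake and oxidation, 26 fell and none rose, 23 of them at least 2-fold, with their median at −1.76 log2 relative to all genes. The count was the same after median-of-ratios scaling. Cd36, the fatty acid transporter, was at 43.7, 42.5 and 44.2 RPKM in FDB, against 148, 159.9, 154 and 178 RPKM in soleus. It fell by 1.85 ± 0.10 log2 (adjusted p = 1.64e-20). Hadha and Hadhb, the subunits of the mitochondrial trifunctional protein, fell by 1.84 log2 (adjusted p = 1.2e-27) and 2.03 (adjusted p = 1.31e-27). Acadm, the medium-chain acyl-CoA dehydrogenase, was at 60.8, 66.3 and 63.2 RPKM in FDB, against 185, 199, 199.6 and 189 RPKM in soleus. Acadm fell by 1.59 ± 0.07 log2 (adjusted p = 1.03e-23). Lpl, the lipase that frees fatty acids from circulating lipoproteins, fell by 2.45 log2 (adjusted p = 8.52e-20), Cpt1b, the gate to mitochondrial import, by 1.55 (adjusted p = 3.65e-20), and Pdk4, the kinase that shuts off pyruvate oxidation, by 2.04 (adjusted p = 4.28e-05). Ucp3 alone did not pass (0.28, adjusted p = 0.486).

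Promoter windows of 3 fat oxidation genes are shown because these genes fell together and 2 of them hold the nuclear receptor half-site AGGTCA (in capitals, either strand), the core bound by PPAR and ERR receptors. All are from RefSeq, GRCm38.p6, 5′ to 3′. They are Acadm (chr3:153944594-153944893, minus strand), Cd36 (chr5:17835847-17836146, minus strand) and Hadhb (chr5:30155003-30155302, plus strand), which has none in this window. The Hadha window (chr5:30154931-30155230, minus strand) shares 228 bases with that of Hadhb, so the 2 genes, which fell by like amounts, are divergently transcribed from 1 stretch. The half-site is in 16.3% of all windows and in 8 of the 27 windows of 23 genes on this list (29.6%). Whether it bears on the falls was not tested.
Acadm: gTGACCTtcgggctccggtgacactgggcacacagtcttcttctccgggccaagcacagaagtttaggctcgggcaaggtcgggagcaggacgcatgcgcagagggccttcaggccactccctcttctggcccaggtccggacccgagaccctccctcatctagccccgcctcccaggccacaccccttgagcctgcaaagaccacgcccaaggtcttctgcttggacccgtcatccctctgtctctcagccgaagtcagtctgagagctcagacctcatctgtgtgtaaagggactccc
Cd36: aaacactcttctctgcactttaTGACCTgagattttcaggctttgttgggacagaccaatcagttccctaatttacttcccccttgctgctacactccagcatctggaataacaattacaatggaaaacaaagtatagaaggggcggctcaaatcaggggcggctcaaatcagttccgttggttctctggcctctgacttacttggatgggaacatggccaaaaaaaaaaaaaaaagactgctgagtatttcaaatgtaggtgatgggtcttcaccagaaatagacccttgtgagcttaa
Hadhb: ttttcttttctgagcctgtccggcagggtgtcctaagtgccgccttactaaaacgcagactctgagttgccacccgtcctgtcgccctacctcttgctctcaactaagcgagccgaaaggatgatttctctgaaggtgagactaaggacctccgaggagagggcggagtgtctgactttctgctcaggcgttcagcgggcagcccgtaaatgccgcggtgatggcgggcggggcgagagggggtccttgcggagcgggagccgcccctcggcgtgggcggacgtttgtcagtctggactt

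All 18 tricarboxylic acid cycle genes fell, under both scalings named above, with their median at −1.04 log2 relative to all genes. Idh2, the mitochondrial NADP-dependent isocitrate dehydrogenase, stood out at 62.5, 60.3 and 60.9 RPKM in FDB, against 442, 389.8, 449.6 and 395 RPKM in soleus. Idh2 fell by 2.75 ± 0.12 log2 (adjusted p = 3.08e-24). Mdh1, the cytosolic malate dehydrogenase of the shuttle that feeds electrons to mitochondria, fell by 1.53 (adjusted p = 3.41e-17). Cs, citrate synthase, the usual index of mitochondrial content, fell by 0.67 (adjusted p = 3.99e-14). Of 75 nuclear genes of the respiratory chain and ATP synthase, 68 fell and none rose (72 and 0 after median-of-ratios scaling), with their median at −0.92. Cycs, cytochrome c, was at 62.2, 72.2 and 72.5 RPKM in FDB, against 178, 177, 185 and 165 RPKM in soleus. It fell by 1.34 ± 0.12 log2 (adjusted p = 1.77e-13). Sdhb, a complex II subunit, fell by 1.27 (adjusted p = 4.84e-18) and Cox6a2, the muscle form of a cytochrome oxidase subunit, by 1.15 (adjusted p = 4.36e-08).

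Of 14 genes of oxygen and phosphate buffering and their regulators 8 fell and 3 rose (9 and 2 after median-of-ratios scaling). Of 24 regulators of nuclear calcium signalling and fibre type 11 rose and 7 fell (6 and 7). Ppargc1a, the coactivator of mitochondrial biogenesis, was at 3.61, 6.81 and 9.34 RPKM in FDB, against 21.8, 18.6, 18.2 and 22.5 RPKM in soleus. Ppargc1a fell by 1.56 ± 0.23 log2 (adjusted p = 1.39e-07). Ppara, the fatty acid receptor, fell by 2.27 log2 (adjusted p = 1.42e-15). The oestrogen-related receptors Esrrg, Esrrb and Esrra fell by 1.53, 1.17 and 0.97 (adjusted p = 1.87e-13, 7.55e-13 and 1.15e-09), and Vegfa, the vascular growth factor, by 1.76 (adjusted p = 3.66e-14). Rcan1, whose muscle form is induced by calcineurin, fell by 1.60 (adjusted p = 3.93e-06). Higher in FDB were Tbx15, a transcription factor of fast glycolytic fibres, at 102, 108 and 107 RPKM in FDB, against 34.3, 35.5, 32.7 and 31.6 RPKM in soleus (1.63 ± 0.07 log2, adjusted p = 3.06e-25), and Tbx1 (1.54 ± 0.12 log2, adjusted p = 3.02e-15). Mb, myoglobin, an oxygen store usually abundant in oxidative fibres, was higher rather than lower, at 4190.0, 4327 and 4232 RPKM in FDB, against 3111, 3354, 3317 and 3441 RPKM in soleus (0.36 ± 0.15 log2, adjusted p = 0.0262). This call was lost after median-of-ratios scaling (0.10, adjusted p = 0.604) and without ns02, ns04 or ns17 (adjusted p up to 0.0642). Car3, the cytosolic carbonic anhydrase of muscle, rose by 1.25 (adjusted p = 6.25e-05).

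Glycolysis did not move as a block. Of 28 glycogen and glycolysis genes 14 rose and 7 fell, with the median at −0.04 log2 relative to all genes, and after median-of-ratios scaling 8 rose and 11 fell. Slc16a3, the lactate exporter MCT4, was at 80.7, 75.9 and 78.1 RPKM in FDB, against 14.9, 19, 18.3 and 15.1 RPKM in soleus. Slc16a3 rose by 2.16 ± 0.20 log2 (adjusted p = 5.06e-13). Pfkfb3, which makes the activator of phosphofructokinase, rose by 2.07 (adjusted p = 3.34e-07). Ldhb, the lactate dehydrogenase subunit of oxidative tissue, was at 50.7, 56.3 and 55.1 RPKM in FDB, against 383, 392, 398 and 423 RPKM in soleus. It fell by 2.86 ± 0.15 log2 (adjusted p = 5.52e-21). Smaller rises were seen in Pfkm (0.74, adjusted p = 4.8e-12), Pkm (0.75, adjusted p = 7.38e-16) and Pygm, muscle glycogen phosphorylase (0.45, adjusted p = 3.05e-05; 0.19, adjusted p = 0.127 after median-of-ratios scaling). Hk2, the main muscle hexokinase, fell by 0.44 (adjusted p = 0.00409) and Gys1, muscle glycogen synthase, by 0.41 (adjusted p = 1.8e-05).

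Calcium handling genes differed by isoform. Of 25 genes of the triad and its calcium store, 14 rose and 7 fell (8 and 9 after median-of-ratios scaling). Slow-fibre members fell: besides Atp2a2 and Casq2, Sln, encoding the SERCA inhibitor sarcolipin, was at 64.4, 42.7 and 52.7 RPKM in FDB, against 391, 273, 297 and 279.8 RPKM in soleus. Sln fell by 2.52 ± 0.23 log2 (adjusted p = 4.15e-13). Pln, phospholamban, fell by 0.97 (adjusted p = 0.000102). Members of the voltage sensor rose, with Cacng1 at 173, 165 and 156 RPKM in FDB, against 68.6, 67.5, 60.7 and 72.7 RPKM in soleus (1.28 ± 0.12 log2, adjusted p = 1.12e-12) and the pore subunit Cacna1s up by 0.58 (adjusted p = 2.08e-06). Ryr1, the release channel, did not pass (−0.11, adjusted p = 0.503; −0.37, adjusted p = 0.0282 after median-of-ratios scaling). Of 14 channel and pump genes 7 rose and 3 fell (5 and 6 after median-of-ratios scaling). On this list and on that of the triad the share of rises was near the 51.2% over all genes tested. Kcnc4 and Kcnc1, voltage-gated potassium channels, rose by 2.74 and 1.46 (adjusted p = 1.36e-17 and 3.53e-14), Atp1b2, a sodium pump subunit, by 1.76 (adjusted p = 7.33e-11) and Clcn1, the chloride channel that steadies the fibre membrane, by 0.99 (adjusted p = 7.75e-11). Kcna7 fell by 1.33 (adjusted p = 8.39e-15).

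Genes of the neuromuscular synapse, including those of its receptor and its enzyme, were higher in FDB. Of 16 synapse and denervation genes 12 rose and none fell (10 and 2 after median-of-ratios scaling; median 0.54 log2 relative to all genes). Chrne, the adult epsilon subunit of the acetylcholine receptor, was at 31.7, 39.1 and 33.8 RPKM in FDB, against 4.17, 4.23, 3.77 and 3.48 RPKM in soleus. It rose by 2.87 ± 0.10 log2 (adjusted p = 1.64e-27). Chrna1 and Chrnb1, the alpha and beta subunits, rose by 1.77 and 1.24 (adjusted p = 3.43e-15 and 2.33e-13). Ache, acetylcholinesterase, was at 34.8, 34.8 and 31.3 RPKM in FDB, against 6.23, 7.43, 6.84 and 5.98 RPKM in soleus. Ache rose by 2.19 ± 0.13 log2 (adjusted p = 3.06e-19). Etv5, an ETS factor enriched at synaptic nuclei, rose by 1.50 (adjusted p = 2.07e-14). Chrng, the fetal gamma subunit that returns with denervation and regeneration, was at 3.65 ± 1.54 RPKM in FDB and 3.46 ± 1.93 in soleus (SD, n = 3 and 4) and did not pass (0.10, adjusted p = 0.834; its sign turned with median-of-ratios scaling and with quantile normalization). The receptor-anchoring Rapsn did not pass with the deposited values (−0.01, adjusted p = 0.923) and was lower after median-of-ratios scaling (−0.25, adjusted p = 0.0104).

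Windows of 3 receptor subunit genes that rose are shown as a description of the letters. They are from RefSeq, GRCm38.p6, minus strand, 5′ to 3′: Chrne (chr11:70619145-70619444), Chrna1 (chr2:73580289-73580588) and Chrnb1 (chr11:69795888-69796187). Capitals mark E-boxes (CANNTG) and the N-box CCGGAA, an ETS factor core known from synaptic genes, searched on both strands, and no match overlaps another. The N-box is in the Chrne window only among the 3, at 1 place, in 14.9% of all windows and in 2 of the 14 windows of 11 genes on this list. An E-box is in 72.3% of all windows and in 10 of those 14. A match shows no binding, and whether the motifs bear on the rises was not tested.
Chrne: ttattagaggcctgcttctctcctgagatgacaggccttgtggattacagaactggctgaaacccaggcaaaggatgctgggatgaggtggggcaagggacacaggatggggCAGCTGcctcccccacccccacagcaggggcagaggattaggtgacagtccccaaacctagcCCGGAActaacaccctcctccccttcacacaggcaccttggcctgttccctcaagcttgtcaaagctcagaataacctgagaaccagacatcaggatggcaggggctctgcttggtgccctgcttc
Chrna1: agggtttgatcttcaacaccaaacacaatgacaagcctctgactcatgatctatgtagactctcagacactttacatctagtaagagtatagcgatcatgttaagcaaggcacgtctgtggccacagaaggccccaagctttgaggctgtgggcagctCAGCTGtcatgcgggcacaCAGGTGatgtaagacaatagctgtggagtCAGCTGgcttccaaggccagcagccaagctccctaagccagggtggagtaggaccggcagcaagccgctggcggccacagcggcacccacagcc
Chrnb1: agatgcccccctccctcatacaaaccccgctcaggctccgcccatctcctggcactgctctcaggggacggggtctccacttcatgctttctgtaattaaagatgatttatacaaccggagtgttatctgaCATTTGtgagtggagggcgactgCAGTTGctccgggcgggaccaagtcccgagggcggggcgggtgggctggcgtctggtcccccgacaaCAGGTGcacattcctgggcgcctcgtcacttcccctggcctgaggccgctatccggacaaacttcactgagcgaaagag

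Peripheral nerve RNA was higher on the list used. Of 20 Schwann cell and nerve genes listed, 18 reached the mean needed for the test. That mean takes in the FDB libraries, which can tilt the count towards rises. All 18 rose under both scalings, with their median at 1.55 log2 relative to all genes. Pmp22, a membrane protein of peripheral myelin, was at 169.9, 132 and 152 RPKM in FDB, against 27.8, 27.9, 24.2 and 24.4 RPKM in soleus. Pmp22 rose by 2.49 ± 0.21 log2 (adjusted p = 2.18e-14). Every FDB library lay above every soleus library. Prx, periaxin (2.82 ± 0.29 log2, adjusted p = 1.77e-11), Ncmap (2.75 ± 0.23 log2, adjusted p = 3.86e-14) and Pmp2 (2.13 ± 0.33 log2, adjusted p = 3.69e-07) rose with it, as did Sox10, the lineage factor of Schwann cells (1.42 ± 0.22 log2, adjusted p = 2.12e-07). Summed over the list, RPKM ran from 357 to 463 in mdx FDB and from 45.9 to 54.5 in mdx soleus. In bulk RNA of whole muscle, fewer cells of a type and less RNA per cell cannot be told apart, here and for each cell type below.

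Tendon, cartilage and matrix genes were also higher. Of 23 tendon, cartilage and bone genes listed, 17 reached the mean needed for the test. Of these 17, 13 rose and none fell (10 and 0 after median-of-ratios scaling). That mean is taken over all 55 libraries, FDB among them. A gene almost absent from soleus, such as Col9a1, can thus be tested because it is high in FDB, which tilts the count towards rises. Col9a1, a collagen of cartilage, was at 7.08, 8.39 and 7.05 RPKM in FDB, against 0.00905, 0.019, 0.0231 and 0.00899 RPKM in soleus. Col9a1 rose by 3.06 ± 0.12 log2 (adjusted p = 2.01e-26). Fmod, fibromodulin, a collagen-binding proteoglycan of tendon, was at 349.9, 482 and 418 RPKM in FDB, against 57.4, 50.6, 51.1 and 60.4 RPKM in soleus. It rose by 2.89 ± 0.48 log2 (adjusted p = 1.04e-06). Comp, Chad and Prg4 (lubricin) rose by 2.31, 2.27 and 2.28 (adjusted p = 3.15e-07, 2.02e-05 and 3.02e-07). Tnmd, the tenocyte membrane protein tenomodulin, rose by 1.13 (adjusted p = 0.0113; 0.88, adjusted p = 0.0639 after median-of-ratios scaling; 0.99, adjusted p = 0.0538 without ns02). Scx, the tendon lineage factor, did not pass (0.20, adjusted p = 0.388; its sign turned with median-of-ratios scaling and with quantile normalization). Of 30 matrix and remodelling genes 20 rose and 1 fell (15 and 2). Lox, which crosslinks collagen, was at 49.2, 40.5 and 44.2 RPKM in FDB, against 8.4, 7.62, 6.24 and 9.76 RPKM in soleus. Lox rose by 2.35 ± 0.24 log2 (adjusted p = 5.88e-12). Ctgf and Thbs1 rose by 2.05 and 1.90 (adjusted p = 1.17e-07 and 3.61e-05), Mmp2 by 1.63 (adjusted p = 1.71e-09) and Col1a1, the main chain of type I collagen, by 0.96 (adjusted p = 0.00681). Col8a1 fell by 1.10 (adjusted p = 1.36e-06). Postn, periostin of fibrotic matrix, was at 49.6, 31.2 and 34 RPKM in FDB, against 84.1, 65.7, 58.2 and 50.3 RPKM in soleus and did not pass (−0.74 ± 0.45 log2, adjusted p = 0.14), but did after median-of-ratios scaling (−0.995, adjusted p = 0.0498) and in a fit of the 7 libraries alone (−0.74, adjusted p = 0.00694).

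Among 17 markers of fibroadipogenic progenitors, the connective tissue cells of muscle, 12 rose and 2 fell (9 and 3 after median-of-ratios scaling). Dcn, decorin, was at 1141, 1061 and 1113 RPKM in FDB, against 250.0, 238, 211 and 216 RPKM in soleus. Dcn rose by 2.27 ± 0.16 log2 (adjusted p = 2.05e-16). Gsn, gelsolin, rose by 2.41 (adjusted p = 9.15e-16), Vit by 2.54 (adjusted p = 1.25e-17) and Pdgfra, the receptor that defines these cells, by 1.33 (adjusted p = 1.37e-11). The members that fell were Lpl, given above, and Col15a1 (−1.40, adjusted p = 3.63e-09). Of 7 mast cell genes listed, 6 reached the mean needed for the test, which takes in FDB, and all 6 rose (5 after median-of-ratios scaling). Mcpt4, a mast cell protease, was at 23.7, 13.6 and 15.7 RPKM in FDB, against 4.85, 4.89, 3.86 and 3.39 RPKM in soleus. Mcpt4 rose by 1.81 ± 0.40 log2 (adjusted p = 0.000115). Of 7 lymphatic endothelial genes 4 rose and 1 fell (3 and 1). Lyve1, a receptor of lymphatic endothelium and of some resident macrophages, was at 33.6, 23.2 and 23.8 RPKM in FDB, against 3.39, 4.45, 3.18 and 5.18 RPKM in soleus. Lyve1 rose by 2.46 ± 0.28 log2 (adjusted p = 1.61e-10).

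Blood vessel genes were lower in FDB. Of 16 endothelial genes 13 fell and 1 rose (13 and 0 after median-of-ratios scaling), with their median at −1.04 log2 relative to all genes. Kdr, the main VEGF receptor, was at 5.19, 4.94 and 4.69 RPKM in FDB, against 16.4, 18.1, 20 and 16.1 RPKM in soleus. Kdr fell by 1.65 ± 0.20 log2 (adjusted p = 1.72e-09). Gpihbp1, which holds Lpl on capillaries, fell by 1.56 (adjusted p = 7.21e-12) and Cdh5, VE-cadherin, by 1.26 (adjusted p = 5.32e-10). Tek was the riser (0.25, adjusted p = 0.0217), a call lost after median-of-ratios scaling (0.02, adjusted p = 0.868) and without ns01 or ns17 (adjusted p up to 0.183). All 7 erythroid genes tested, of 8 listed, fell under both scalings, but only 2 did without ns04. Alas2, the erythroid haem enzyme, fell by 0.91 (adjusted p = 0.00179). The globin genes among them are near-identical copies whose reads may be split between them. Of 14 smooth muscle and pericyte genes 6 rose and 4 fell (4 and 4), and 3 rose without ns04. The contractile gene Actg2 was at 1.9, 10.4 and 7.85 RPKM in FDB, against 1.03, 1.09, 1.14 and 0.808 RPKM in soleus. Actg2 rose by 1.72 ± 0.52 log2 (adjusted p = 0.0033). Tagln, another contractile gene, rose by 1.27 (adjusted p = 0.00913), whereas the pericyte marker Rgs5 fell by 0.78 (adjusted p = 2.19e-06).

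**Figure D2:**
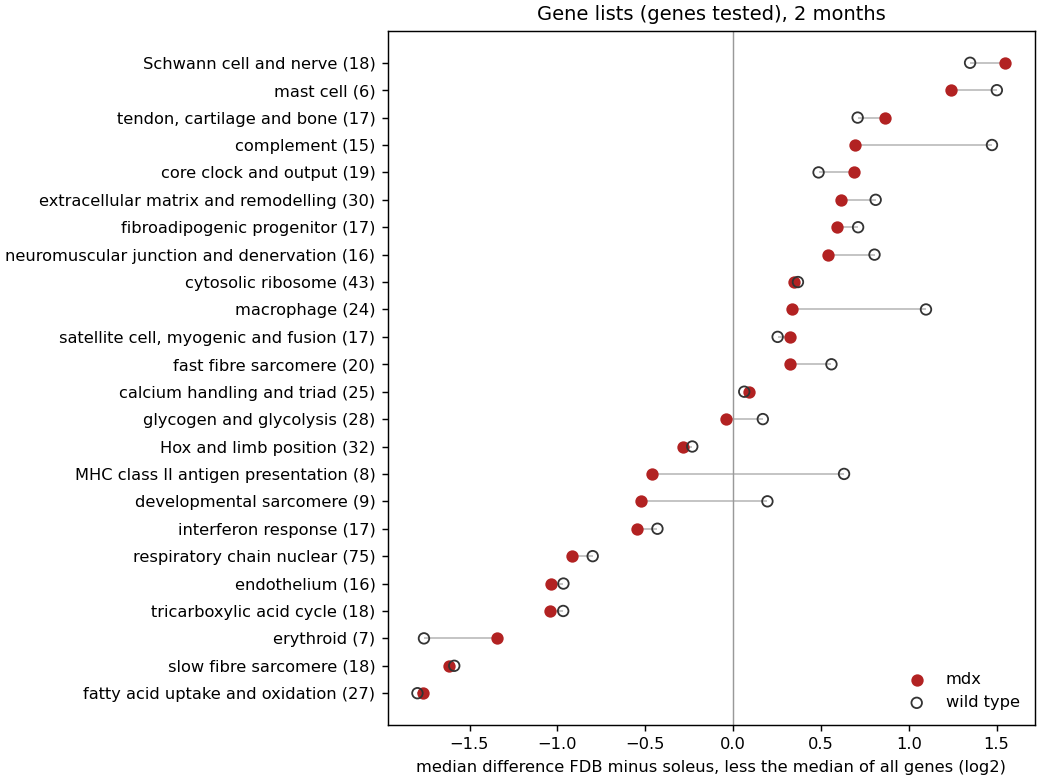
Median difference between FDB and soleus (log2(RPKM + 1) scale, less the median of all genes) of 24 gene lists in mdx (filled) and wild-type (open) mice at 2 months. Fat oxidation and slow sarcomere genes stood lowest and Schwann cell genes highest in mdx, and macrophage and MHC class II genes lay further apart between genotypes than most lists.

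Of 24 macrophage genes 8 rose and 1 fell in mdx FDB (6 and 2 after median-of-ratios scaling), a smaller share of rises than the 51.2% over all genes tested. In wild-type FDB the counts were 20 and 0 (where 52.2% of all genes tested rose and 18.1% fell). The list's median relative to all genes was 0.33 log2 in mdx and 1.10 in wild type. Summed over the list, RPKM ran from 655 to 920.5 in mdx FDB and from 382 to 598 in mdx soleus, but from 283 to 361 in wild-type FDB and from 63.7 to 161 in wild-type soleus. Cd163, a scavenger receptor of resident macrophages, was at 24.7, 12.9 and 18.5 RPKM in FDB, against 5.29, 5.32, 4.83 and 5.75 RPKM in soleus. Cd163 rose by 1.60 ± 0.24 log2 (adjusted p = 1.24e-07). Lgals3, Csf1r and Cd14 rose by 1.64, 1.03 and 1.06 (adjusted p = 0.000164, 0.000508 and 4.19e-05). Lyz2, lysozyme, did not pass (0.61 ± 0.35 log2, adjusted p = 0.117) except in a fit of the 7 libraries alone (0.61, adjusted p = 0.0207). Ms4a7 fell by 0.57 (adjusted p = 0.0386), a call lost when any 1 of the libraries other than ns20 was left out (adjusted p up to 0.127). None of the 24 passed the test of genotype by muscle, where the list's median was −0.87 relative to all genes. Without the wild-type soleus library ns25, 1 did, in the negative direction, and the median was −1.05.

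MHC class II genes present antigen to helper T cells, and their median relative to all genes was −0.46 log2 in mdx and 0.63 in wild type. Of 8, 2 rose and none fell in mdx FDB (1 and 2 after median-of-ratios scaling), against 7 and 0 in wild-type FDB. In mdx FDB 1 rose without ns01 or ns19, and 1 fell without ns20. H2-Ab1 was at 50.1, 38.1 and 42.7 RPKM in FDB, against 67.6, 71.5, 58.5 and 49.7 RPKM in soleus, which did not pass (−0.49 ± 0.32 log2, adjusted p = 0.18) but did after median-of-ratios scaling (−0.74, adjusted p = 0.0393) and in a fit of the 7 libraries alone (−0.49, adjusted p = 0.00829). In wild-type mice it was at 19.4, 19.4, 13.7 and 13.2 RPKM in FDB, against 19.5, 6.39, 6.87 and 4.58 RPKM in soleus (0.93 ± 0.30 log2, adjusted p = 0.00589). The library ns25 stood above the other 3 of its group for this and other immune genes. With all libraries 0 of the 8 passed genotype by muscle, and without ns25 4 did, all in the negative direction, with the list's median at −1.36 relative to all genes, against −1.06 with it. Complement genes rose in 11 of 15 cases (9 after median-of-ratios scaling) with none lower, where 51.2% of all genes tested rose. In wild-type FDB all 15 rose. The list's median relative to all genes was 0.69 log2 in mdx and 1.47 in wild type, and 1 of the 15, Cfb, passed genotype by muscle. C7, a component of the membrane attack complex, was at 58.4, 41.3 and 49.3 RPKM in FDB, against 5.84, 8.04, 7.38 and 10.8 RPKM in soleus. C7 rose by 2.51 ± 0.29 log2 (adjusted p = 2.27e-10). C2 rose by 2.23 (adjusted p = 1.66e-10) and Serping1, the C1 inhibitor, by 1.76 (adjusted p = 2.78e-12). Interferon-response genes fell in 6 of 17 cases with none higher (8 and 0), but in 3 without ns01, ns04 or ns18, the last with 1 higher. Among those that fell were Rsad2 (−0.90, adjusted p = 0.000822) and Bst2 (−0.79, adjusted p = 0.0045). Of 5 neutrophil genes 2 rose and none fell (1 and 1). S100a8, a granulocyte protein, was at 16.4, 13.9 and 15.8 RPKM in FDB, against 0.956, 2.06, 0.772 and 2.8 RPKM in soleus (2.70 ± 0.56 log2, adjusted p = 4.6e-05), while its partner S100a9 did not pass (−0.62, adjusted p = 0.281).

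Markers of regeneration were mixed. Of 9 developmental sarcomere genes 2 rose and 3 fell (1 and 4 after median-of-ratios scaling), and 1 fell without ns02. Myh3, the embryonic myosin, was at 48.6, 31.2 and 45.9 RPKM in FDB, against 108, 61.8, 58.9 and 39.8 RPKM in soleus. Myh8, the perinatal one, was at 39.5, 21.5 and 31.7 RPKM in FDB, against 106, 46.1, 62.8 and 27 RPKM in soleus. Neither passed (−0.60 ± 0.50 log2, adjusted p = 0.289 and −0.82 ± 0.42 log2, adjusted p = 0.0799), although Myh8 did after median-of-ratios scaling (−1.07, adjusted p = 0.0256) and without ns20 (−1.14, adjusted p = 0.0192). For Myh3 the soleus libraries overlapped those of FDB. Tnnt2, cardiac and embryonic troponin T, was at 105, 70.2 and 84.1 RPKM in FDB, against 46.6, 26.8, 20.4 and 19 RPKM in soleus. Tnnt2 rose by 1.66 ± 0.36 log2 (adjusted p = 0.000106). Actc1, cardiac actin, fell by 1.15 (adjusted p = 0.0223), a call lost without ns02 (−0.92, adjusted p = 0.11) or ns17 (−0.91, adjusted p = 0.0893). Of 17 satellite cell, myogenic and fusion genes 8 rose and 1 fell (6 and 1), a share of rises near the 51.2% over all genes tested. Mybph, a myosin-binding protein that rises in denervated and young muscle, was at 150.1, 57.5 and 69.1 RPKM in FDB, against 18, 33.5, 6.59 and 10.5 RPKM in soleus. Mybph rose by 2.46 ± 0.53 log2 (adjusted p = 7.63e-05). Myod1 rose by 1.09 (adjusted p = 4.93e-05) and Itga7, the laminin-binding integrin, by 0.82 (adjusted p = 1.21e-10). Pax7, the satellite cell factor, did not pass (−0.06, adjusted p = 0.64; −0.25, adjusted p = 0.0319 with quantile normalization).

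Of 20 genes of the dystrophin complex and its partners 14 rose and 2 fell (10 and 5 after median-of-ratios scaling), and 1 fell without ns01, ns04, ns19 or ns20. Utrn, utrophin, the autosomal relative of dystrophin, was at 8.31, 8.3 and 8.3 RPKM in FDB, against 5.49, 5.6, 5.21 and 5.19 RPKM in soleus. It rose by 0.55 ± 0.14 log2 (adjusted p = 0.000517). Lama2, the laminin chain that the complex binds, rose by 1.04 (adjusted p = 3.78e-12) and Sgce, epsilon-sarcoglycan, by 0.96 (adjusted p = 1.08e-10). Large, a glycosyltransferase of alpha-dystroglycan, fell by 0.60 (adjusted p = 2.98e-11) and Dag1 itself did not pass (−0.09, adjusted p = 0.456; −0.34, adjusted p = 0.0014 after median-of-ratios scaling). Nos1, neuronal nitric oxide synthase, which the complex anchors, was at 4.71, 6.06 and 5.73 RPKM in FDB, against 1.03, 2.38, 2.16 and 1.88 RPKM in soleus (1.20 ± 0.19 log2, adjusted p = 2.58e-07). In wild-type mice it was at 6.18, 4.75, 5.75 and 4.95 RPKM in FDB, against 5.91, 3.93, 5.33 and 3.66 RPKM in soleus and did not pass (0.18 ± 0.17 log2, adjusted p = 0.349). Its difference between genotypes passed (1.02 ± 0.25 log2, adjusted p = 0.0214), though not without ns02, ns04, ns17, ns25 or ns27 (adjusted p up to 0.083). The small wild-type difference turned sign with median-of-ratios scaling and with quantile normalization.

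Hox genes pattern the embryonic limb from hip to toe, the genes at the end of each cluster acting in the hand and foot, and adult limb muscles keep part of this expression. Of 50 Hox and limb-position genes listed, 32 were tested, of which 12 rose and 12 fell (9 and 15 after median-of-ratios scaling). Hoxc12, Hoxc13, Hoxd10, Hoxd11 and Hoxd12 were among those that did not reach the mean needed for the test. Hoxa13 was at 10.4, 10.3 and 8.96 RPKM in FDB, against 0.3, 0.389, 0.497 and 0.341 RPKM in soleus. Hoxa13 rose by 2.98 ± 0.08 log2 (adjusted p = 8.39e-32). Hoxd13 was at 3.86, 3.68 and 5.27 RPKM in FDB, while it was listed at 0 in all 4 soleus libraries (2.39 ± 0.06 log2, adjusted p = 8.88e-34). These 4 libraries thus added nothing to the mean that admitted Hoxd13 to the test. Hottip, the noncoding RNA made beside Hoxa13, rose by 1.38 (adjusted p = 2.65e-30). Hoxa11 was at 6.65, 6.32 and 6.46 RPKM in FDB, against 0.949, 0.794, 0.973 and 1.07 RPKM in soleus. Hoxa11 rose by 1.94 ± 0.09 log2 (adjusted p = 1.89e-23). Hoxa10 rose by 0.87 (adjusted p = 5.1e-14). Lower were Hoxd8 (−0.87), Hoxc5 (−0.85), Hoxc6 (−0.79), Hoxd4 (−0.67) and Meis1, a Hox cofactor of the proximal limb (−1.06; adjusted p = 5.33e-07, 1.59e-12, 6.66e-08, 7.37e-07 and 1.65e-17). Smaller rises were those of Hoxa7 and Hoxa9 (0.38 and 0.44, adjusted p = 6.16e-06 and 8.49e-05). Hoxc11 rose by 0.37 (adjusted p = 0.000409) while Hoxc10, the most abundant Hox transcript in both muscles, fell by 0.20 (adjusted p = 0.0474). The Hoxc10 call was lost without ns01, ns04, ns18, ns19 or ns20 (adjusted p up to 0.119), that of Hoxc11 after median-of-ratios scaling (0.15, adjusted p = 0.165), and those of Hoxa7 and Hoxa9 with quantile normalization (0.14, adjusted p = 0.115 and 0.20, adjusted p = 0.0574).

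**Figure D3:**
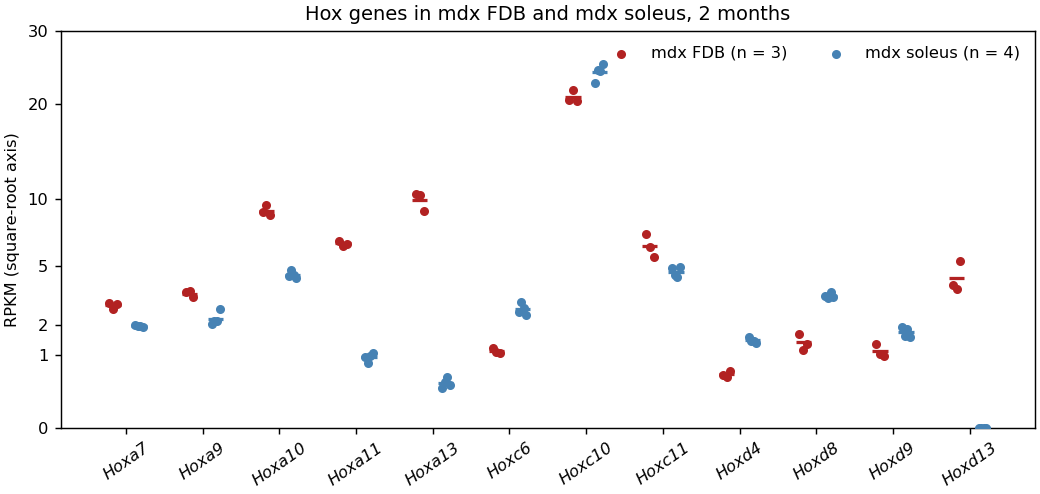
RPKM on a square-root axis for 12 Hox genes in the 3 mdx FDB libraries (left of each pair) and the 4 mdx soleus libraries (right of each pair), with bars at the group means. Hoxa11, Hoxa13 and Hoxd13 were higher in each FDB library than in any soleus library, and Hoxd8 and Hoxc6 were lower.

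Clock genes were higher in FDB. Of 19 clock genes 17 rose and none fell (14 and 0 after median-of-ratios scaling), activators and repressors alike: Npas2 by 0.66 (adjusted p = 0.000858), Per1 by 1.60 (adjusted p = 0.000252), Per3 by 1.25 (adjusted p = 7.63e-06), Cry2 by 1.62 (adjusted p = 8.04e-11) and Bhlhe40 by 1.71 (adjusted p = 1.53e-11). The labels give no hour of dissection, so time of day and muscle cannot be told apart. Mstn, myostatin, the secreted brake on muscle growth, was at 11.3, 15.3 and 12.4 RPKM in FDB, against 0.409, 0.698, 0.559 and 0.702 RPKM in soleus (3.13 ± 0.16 log2, adjusted p = 6.02e-22). That was the largest difference among 18 atrophy and growth genes, of which 6 rose and 1 fell (5 and 3), with 2 falls without ns04. The ubiquitin ligase Trim63 did not pass (−0.01, adjusted p = 0.955). Of 22 immediate-early and heat shock genes 5 rose and 5 fell (3 and 5), and 3 rose without ns01, ns17, ns18 or ns20. On both lists fewer genes passed than over all genes tested (67.1%). Among chaperones, Hspa1a fell by 1.67 (adjusted p = 3.7e-07), Cryab, alpha-B-crystallin, by 1.13 (adjusted p = 8.44e-08) and Hsph1 by 1.27 (adjusted p = 2.48e-16). Nr4a1 and Nr4a2, immediate-early nuclear receptors, rose by 1.20 and 1.17 (adjusted p = 0.00462 and 0.00427). Of 43 cytosolic ribosomal protein genes 38 rose and none fell (23 and 0), with Rps25 the largest (0.85, adjusted p = 2.24e-06).

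Most of the difference between the muscles was shared by wild-type mice, whose libraries are not among the 7. In wild-type mice 8812 of the genes tested differed (70.3%). Of the 956 genes at least 2-fold apart in mdx, 762 were so in wild type in the same direction, 79.7% of the mdx list and 69.3% of the 1100 wild-type genes (6.05% of all genes tested higher and 2.72% lower). Across the 12541 genes, which are not independent replicates, the 2 differences had a Pearson's r of 0.93, given as a description. In 11 genes the differences passed the threshold in opposite directions, among them the chemokine gene Ccl8.

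**Figure D4:**
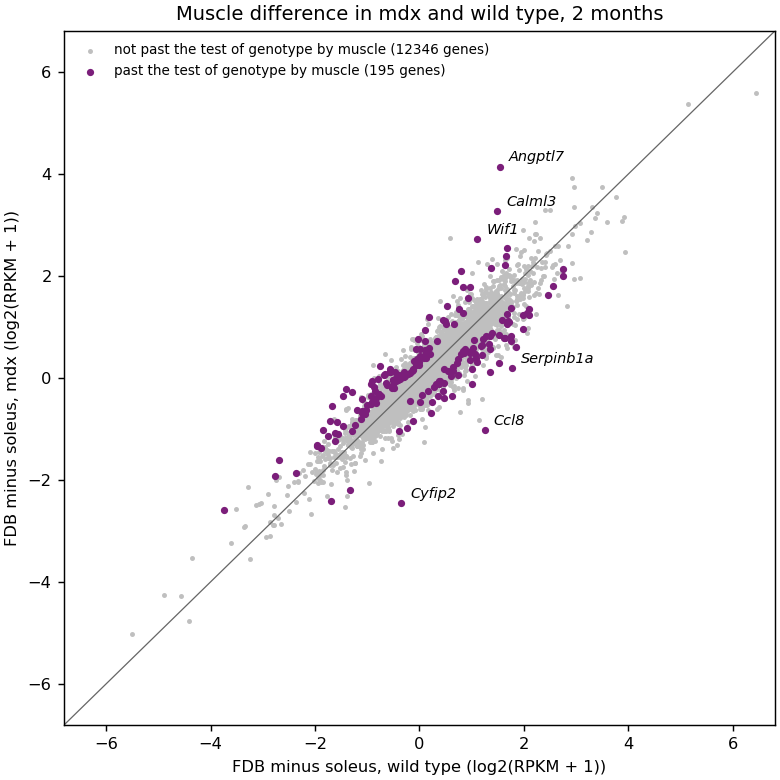
Difference between FDB and soleus in wild-type mice (x axis) and mdx mice (y axis) at 2 months, on the log2(RPKM + 1) scale, for 12541 genes. The 195 genes past the test of genotype by muscle are dark, and those named lie off the diagonal, Angptl7 above it and Ccl8 and Cyfip2 below.

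The muscle difference itself varied with genotype in 195 genes (1.55%), 116 in the positive (0.925%) and 79 in the negative direction (0.63%), and 80 of them passed with each of the 15 libraries left out in turn. The count was 97 without the mdx FDB library ns04, 631 in a fit of the 2-month libraries of these muscles alone and 329 with no filter on low values. The largest positive value was that of Angptl7 (2.60 ± 0.57 log2, adjusted p = 0.00742), which in wild-type mice was at 137, 186, 104 and 156 RPKM in FDB, against 71.3, 44.7, 35.8 and 47.3 RPKM in soleus. Calml3 was next (1.77 ± 0.16 log2, adjusted p = 1.62e-10), with wild-type FDB at 2.01 ± 0.282 RPKM (SD, n = 4) and little in either soleus. Wif1, a secreted Wnt inhibitor (1.62 ± 0.32 log2, adjusted p = 0.00311), and Lrtm1, a leucine-rich repeat membrane protein (1.29 ± 0.19 log2, adjusted p = 2.37e-05), followed, both lower in mdx than in wild-type soleus. Igfn1, a muscle immunoglobulin-like protein, differed by 1.22 ± 0.24 log2, adjusted p = 0.00289 and Prkg1, cyclic GMP-dependent protein kinase, by 1.13 ± 0.21 log2, adjusted p = 0.0013. Acot1, a thioesterase of fatty acyl-CoA with close paralogs whose reads may be split, differed by 1.19 ± 0.27 log2, adjusted p = 0.0109, and missed the threshold without ns01 (1.03, adjusted p = 0.0656).

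Among the 79 genes with negative values, Ccl8, a monocyte-attracting chemokine, was at 7.76, 4.27 and 5.87 RPKM in FDB, against 12.2, 10.8, 16.1 and 13.1 RPKM in soleus in mdx mice. In wild-type mice it was at 2.73, 2.05, 2.23 and 1.56 RPKM in FDB, against 0.917, 0.107, 0.234 and 0.131 RPKM in soleus. Its direction turned round between genotypes (−1.03 ± 0.40 log2, adjusted p = 0.0206 in mdx, 1.25 ± 0.37 log2, adjusted p = 0.00255 in wild type and −2.28 ± 0.54 log2, adjusted p = 0.0143 for the difference). Without ns02 or ns19 the mdx difference missed the threshold (adjusted p up to 0.0984). With a pseudocount of 5 the wild-type difference (0.42, adjusted p = 0.175) and the difference between genotypes (−1.14, adjusted p = 0.165) did so too. Cyfip2, a regulator of actin assembly, was at 0.474, 0.439 and 0.5 RPKM in FDB, against 8.18, 7.62, 6.48 and 6.24 RPKM in soleus and in wild-type mice at 0.349, 0.276, 0.287 and 0.311 RPKM in FDB, against 0.811, 0.627, 0.677 and 0.564 RPKM in soleus (−2.11 ± 0.16 log2, adjusted p = 1.37e-13). The mdx soleus libraries stood apart from the other 3 groups. Serpinb1a, an inhibitor of granulocyte proteases (−1.59 ± 0.37 log2, adjusted p = 0.0122), Gamt, the last enzyme of creatine synthesis (−1.25 ± 0.29 log2, adjusted p = 0.0115), and Prune2 (−1.23 ± 0.13 log2, adjusted p = 7.23e-09) followed. Col14a1 (−1.22 ± 0.34 log2, adjusted p = 0.0467), Fbln7 (−1.12 ± 0.24 log2, adjusted p = 0.00608) and Cfb, complement factor B (−1.02 ± 0.28 log2, adjusted p = 0.0473), made up the rest of the 8 largest. With a pseudocount of 5 Serpinb1a (−0.92, adjusted p = 0.0686) and Cfb (−0.43, adjusted p = 0.325) missed the threshold, and with a pseudocount of 0.1 Col14a1 (−1.44, adjusted p = 0.0707) and Hottip below (−0.64, adjusted p = 0.052). The acetylcholine receptor subunit Chrnb1 (−0.85 ± 0.15 log2, adjusted p = 0.000751) and the calcium channel subunits Cacng1 (−0.78 ± 0.16 log2, adjusted p = 0.00515) and Cacnb1 (−0.49 ± 0.11 log2, adjusted p = 0.0097) were also among the 79, higher in FDB in both genotypes and by less in mdx. Hoxd13 (0.73 ± 0.08 log2, adjusted p = 1.99e-08) and Hottip (−0.37 ± 0.06 log2, adjusted p = 6.72e-05) differed in opposite directions. With single libraries left out, the calls of Ccl8, Serpinb1a, Col14a1 and Cfb were each lost in at least 1 fit, with adjusted p of up to 0.0619, 0.0503, 0.131 and 0.168. Col14a1 lost its call in every such fit except those without ns20 or ns25, and Cfb in every one except those without ns01 or ns25. With no filter on low values both missed the threshold as well (adjusted p = 0.056 each).

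**Figure D5:**
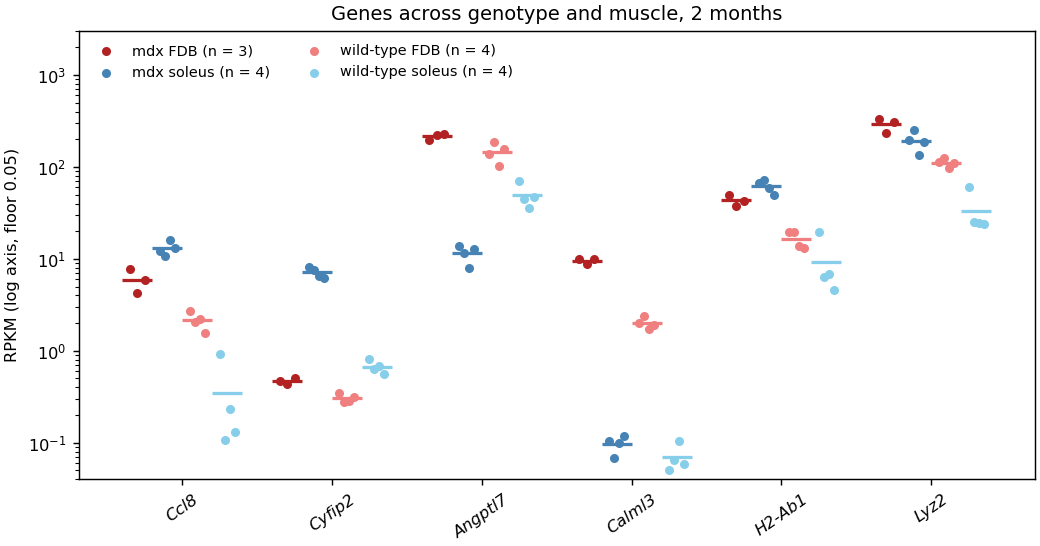
RPKM on a log axis (values under 0.05 drawn at 0.05) for 6 genes in mdx FDB, mdx soleus, wild-type FDB and wild-type soleus libraries at 2 months, with bars at the group means. Cyfip2 and Ccl8 were high in mdx soleus relative to wild-type soleus, Calml3 was highest in mdx FDB, and 1 wild-type soleus library, ns25, stood above its group for H2-Ab1 and Lyz2.

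At 5 months the muscles of mdx mice differed in 9821 genes (78.3%), 7100 higher (56.6%) and 2721 lower (21.7%) in FDB. Of the 956 genes at least 2-fold apart at 2 months, 725 were so at 5 months in the same direction (75.8%), which is 69.9% of the 1037 genes at 5 months (5.19% higher and 3.08% lower). The difference itself varied with age in 1361 genes (10.9%), 487 in the positive (3.88%) and 874 in the negative direction (6.97%). The count was not stable. It was 714, 725 and 761 without the 2-month FDB library ns01, ns02 or ns04 and 902 without the 2-month soleus library ns17. It was 879 without ns53, 2063 without ns58 and 2137 without ns60 of the 5-month libraries, and 91 in a fit of the mdx libraries of these muscles alone. The library ID blocks are unequal here: at 5 months FDB libraries come from the first and the third block, soleus libraries from the second and the third, and the first block holds all 2-month libraries. Depth was approximately 21.3 to 25.7 M reads in the second-block soleus libraries, against 45.9 to 59 M in FDB at 5 months. Summed RPKM ran from 375905 to 401165 in the former and from 321846 to 346509 in the latter. Depth and block are thus partly tied to muscle at 5 months, and their part was not tested. With the third block alone at 5 months, which holds both muscles, 1102 genes differed with age (8.79%). Values given below as within the third block come from that fit, which keeps the same 2-month libraries of the first block. Age and block cannot be told apart in it.

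Several of the largest values of age by muscle did not hold within the third block. Lars2, a mitochondrial leucyl-tRNA synthetase, had the largest positive value (1.94 ± 0.65 log2, adjusted p = 0.0456). Rn45s, the ribosomal RNA precursor, was also among the 5 largest (1.60 ± 0.50 log2, adjusted p = 0.0309). Within the third block they were at 0.26 log2, adjusted p = 0.409 and 0.31 log2, adjusted p = 0.445. Snhg9, a noncoding RNA, had the largest negative value (−2.01 ± 0.60 log2, adjusted p = 0.0251). Within the block it was at −0.22 log2, adjusted p = 0.605. Bc1, a small neuronal noncoding RNA (−1.71 ± 0.57 log2, adjusted p = 0.0421), turned sign there (0.29 log2, adjusted p = 0.612). The calls of these 4 were also lost in a fit of the mdx libraries of these muscles alone (adjusted p = 0.294, 0.235, 0.23 and 0.253) and with single libraries left out (adjusted p up to 0.0989, 0.0786, 0.0651 and 0.115). Values that passed both ways were those of Aplnr, the apelin receptor of endothelium (1.52 ± 0.35 log2, adjusted p = 0.00523; 1.35 log2, adjusted p = 0.0173 within the block), Mmp13, a collagenase (1.19 ± 0.28 log2, adjusted p = 0.00503; 1.01 log2, adjusted p = 0.0249), and Pln (−1.52 ± 0.26 log2, adjusted p = 0.000323; −0.98 log2, adjusted p = 0.0105). In the fit of the mdx libraries of these muscles alone Aplnr (1.52, adjusted p = 0.0651) and Mmp13 (1.19, adjusted p = 0.0774) missed the threshold.

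Aplnr was at 2.72 ± 0.762 RPKM in FDB and 5.87 ± 3.12 RPKM in soleus at 5 months (SD, n = 7 each), against 2.48 ± 0.181 and 16.7 ± 4.37 RPKM at 2 months (n = 3 and 4). Of the 75 respiratory chain genes all 75 were lower in FDB at 5 months, and 24 passed the test of age by muscle, all in the negative direction (6.97% of all genes tested). Only 2 of 75 did within the third block (3.99%). Some other lists gained calls there, where 8.79% of all genes tested passed in either direction. Of 16 endothelial genes 11 passed in the positive direction, and of 7 erythroid genes 5 did, against 0 and 0 with all blocks. Tbx1 was still higher in FDB at 5 months but by less (−1.17 ± 0.15 log2, adjusted p = 1.49e-06; −1.27 log2, adjusted p = 2.19e-08 within the third block). For Musk, the synaptic receptor kinase, the difference was larger at 5 months (1.05 ± 0.17 log2, adjusted p = 0.000126; 0.79 log2, adjusted p = 0.00429).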

How the data were processed

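Muscles were dissected and poly(A) RNA was sequenced, per the labels' protocols. The authors deposited RPKM values, 1 column per library; mapping to mm10 used TopHat and the RPKM were computed in Partek, per the file headers, and CASAVA 1.8.2, TopHat2 2.1.0 and Partek 6.6 are named in the submitters' processing notes. Paralogs and overlapping genes may share reads, since the sources used here do not give the gene annotation, how reads with several matches were counted or the use of strand. RPKM are not counts, and depths were recovered only approximately, from the steps between low values of 1943 short genes, so no count test was run.

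The columns were mapped to groups through the deposited list of library IDs (ns01 and so on), which gives muscle, genotype and age but no replicate number. Of 24453 genes, the 12541 that averaged 0.5 RPKM or more over all 55 libraries were fitted in limma 3.58.1 (R 4.3.3) on log2(RPKM + 1), as 12 group means with a trended prior variance, with Benjamini-Hochberg adjusted p-values over all genes tested within each comparison and a threshold of 0.05. All 55 libraries share 1 estimate of the spread. The procedure was tested on simulated data. Genotype by muscle is the mdx difference between muscles minus the wild-type one, and age by muscle is the 5-month difference minus the 2-month one.

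Named genes were Dmd, then the 12 largest differences of each sign past the threshold that reached 1 RPKM in 1 group and had libraries that do not overlap, the 8 largest of each sign of genotype by muscle, the 5 largest of each sign of age by muscle, and up to 6 members of each list, plus members whose role a sentence is about; some genes that the rule picks are not reported here. The members and gene lists were chosen with earlier results of these data known. Promoter windows come from RefSeq (GRCm38.p6). Alternatives were other pseudocounts (0.1 and 5), no filter or a mean of 5 RPKM, median-of-ratios scaling, quantile normalization, robust variance moderation, fits on the libraries of a comparison alone, each library left out, and the third block of library IDs alone at 5 months.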

Additional observations from a re-analysis of the deposited data

Results flagged for a closer look

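In groups of 4 libraries, 1 library stood far from the others of its group for 9 of the named genes. Chance gives such a gap in about 1 in 20 groups. Mdx soleus was looked at for every named gene and the wild-type groups for some, so chance alone gives a number of such gaps. The gaps below are a list of values and do not show that a library is unusual. In mdx soleus at 2 months the library ns17 was apart for Kcna7 (52.0 RPKM), Tek (7.39 RPKM) and Wif1 (0.702 RPKM), and ns18 for Alas2 (7.16 RPKM), Mylk4 (17.5 RPKM) and Mmp13 (0.493 RPKM). In wild-type soleus ns25 was apart for H2-Ab1 (19.5 RPKM), Col14a1 (6.31 RPKM) and Ccl8 (0.917 RPKM), the highest library of its group in all 3.

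The difference between muscles varied with genotype, by the interaction test, in Angptl7 (2.60 log2), Calml3 (1.77), Wif1 (1.62), Lrtm1 (1.29), Igfn1 (1.22), Acot1 (1.19), Prkg1 (1.13), Nos1 (1.02) and Hoxd13 (0.73). It did so with a negative sign in Ccl8 (−2.28 log2), Cyfip2 (−2.11), Serpinb1a (−1.59), Gamt (−1.25), Prune2 (−1.23), Col14a1 (−1.22), Fbln7 (−1.12), Cfb (−1.02), Chrnb1 (−0.85), Cacng1 (−0.78), Cacnb1 (−0.49) and Hottip (−0.37). The calls of Col14a1 and Cfb were lost in most fits with a single library left out. The difference between muscles also depended on age. That difference varied with age in mdx in Lars2 (1.94 log2), Rn45s (1.60), Aplnr (1.52), Mmp13 (1.19) and Musk (1.05), and with a negative sign in Snhg9 (−2.01), Bc1 (−1.71), Pln (−1.52) and Tbx1 (−1.17). The values of Lars2, Rn45s, Snhg9 and Bc1 did not pass within the third block of library IDs.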

How the results depend on the processing

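Most results kept their direction and their side of the threshold. Over 243 results for named genes, 1821 of 1903 values under the alternatives that keep every library did so, 48 lost and 22 gained a call and 12 changed sign; with single libraries left out, 1900 of 2009 did so, 101 lost and 1 gained a call and 7 changed sign. Of 216 values of 27 list medians under other settings, 60 moved by more than their spread and 6 changed sign.

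Counts of called genes moved by over 1.5 times under these settings. With a filter on a mean of 5 RPKM, which tests fewer genes, 4535 genes differed between muscles in mdx mice at 2 months, 4694 in wild type and 5172 at 5 months. Genotype by muscle gave 329 genes with no filter, 631 in a fit of its libraries alone and 97 to 210 with 1 library left out. Age by muscle gave 91 in a fit of its libraries alone and 714 to 2137 with 1 library left out. The cause of these shifts, other than the number of genes tested, was not tested.

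After median-of-ratios scaling and with quantile normalization the sign turned in Chrng (−0.092 and −0.14 log2), Scx (−0.043 and −0.0103), Tnni2 (−0.048 and −0.18), Tnnt3 (−0.089 and −0.0405) and, in wild type, Nos1 (−0.0304 and −0.046), and with quantile normalization in Myl1 (−0.20). Bc1 turned within the third block (0.29, age by muscle). With 1 library left out, Chrng ran from −0.13 to 0.38, Pax7 from −0.14 to 0.0080, Rapsn from −0.0515 to 0.0545 and Trim63 from −0.0604 to 0.079; none of these passed. The glycogen and glycolysis median, relative to all genes, was 0.047 with a pseudocount of 5, 0.13 with no filter, 0.077 with the higher filter, 0.18 with quantile normalization and −0.082 to 0.0035 with 1 library left out, and that of 14 channel genes was −0.064 with the higher filter and −0.0035 after median-of-ratios scaling. The cause was not tested.

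No paired analysis was possible because the columns carry library IDs and no replicate numbers. Depth is known only approximately, so genes near the filter are the least certain.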

Other observations

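Other gene groups moved in both directions. Of 24 genes of membrane repair, intermediate filaments and stretch sensing 9 rose and 8 fell in mdx FDB (6 and 10 after median-of-ratios scaling). The annexins Anxa1 and Anxa2, which bind membranes at injury, rose by 1.27 and 0.79 log2 (adjusted p = 1.99e-07 and 4.52e-05), and Vim, the intermediate filament protein of connective tissue and young fibres, was at 579, 446 and 479 RPKM in FDB, against 202, 214, 189.9 and 209.9 RPKM in soleus (1.29 ± 0.19 log2, adjusted p = 1.49e-07). Lower were Ankrd23, a stretch-responsive titin partner (−1.07, adjusted p = 1.26e-10), Xirp1, a repair protein of injured sarcomeres (−1.18, adjusted p = 0.000815), and Trim72, which patches torn membranes (−0.75, adjusted p = 1.66e-10).

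Of 13 chemokine and cytokine genes 4 rose and 3 fell (2 and 3 after median-of-ratios scaling), and 2 rose without ns04, ns17 or ns19. Ccl11, the eosinophil attractant eotaxin, was at 49.2, 51.2 and 58.4 RPKM in FDB, against 12.4, 13.3, 12 and 13.5 RPKM in soleus (1.96 ± 0.20 log2, adjusted p = 6.3e-12), every FDB library above every soleus library, whereas Cxcl12 fell by 0.95 (adjusted p = 1.5e-08) and Cx3cl1 by 1.06 (adjusted p = 2.3e-08). Of 15 basement membrane genes 5 rose and 3 fell (4 and 3), and 1 fell without ns02, ns18 or ns19. Lamb2, the laminin chain of synapses, was at 64.3, 56.4 and 59.6 RPKM in FDB, against 31.3, 29.2, 29 and 27.3 RPKM in soleus (1.02 ± 0.12 log2, adjusted p = 6.65e-10), and Col4a1, type IV collagen, was lower (−0.87, adjusted p = 1.9e-07). Of 15 senescence and p53 target genes 9 rose and 2 fell, but 3 and 4 after median-of-ratios scaling; Cdkn1a, the cell cycle inhibitor p21, was higher (1.24, adjusted p = 0.000136) and Ccng1 lower (−0.70, adjusted p = 5.07e-10) under both scalings. Of 13 adipocyte genes 3 rose and 3 fell (2 and 3), with 2 rises and 1 fall of at least 2-fold. Car3, given above as a muscle gene, is on this list and was among the risers. Fabp4, the fatty acid carrier of fat cells and capillaries, fell, at 153, 137 and 139 RPKM in FDB, against 352, 347, 400.4 and 365 RPKM in soleus (−1.35 ± 0.17 log2, adjusted p = 2.57e-09). Summed over the list, Car3 included, RPKM ran from 3961 to 4338 in mdx FDB and from 1702 to 2675 in mdx soleus.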
